A study of Rattus norvegicus with 9 samples.

Results

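Timp1, Fn1, Lamc1, Mfap4, Mfap5, Pcolce, Fbn1, Col6a1, Col12a1 and Col15a1 are 10 genes of the extracellular matrix outside the fibril-forming collagens, followed here through every probe set annotated to 1 of these symbols alone. The members were chosen from the group differences of these same arrays, so their group values are given as a description, without p-values. They have 13 probe sets, among 15866 on the array that are not controls, and are 10 of 10411 genes. All 13 passed the filter on low signal, as did 9520 probe sets in all, and the filter uses the mean over all 9 arrays.

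Expression was measured in dorsal root ganglia (DRG) of segments L4 to L6, the clusters of sensory neuron cell bodies and their glia beside the lumbar spinal cord, of Sprague-Dawley rats. Normal rats received vehicle. Diabetic rats, injected with streptozotocin (STZ), which destroys pancreatic beta cells, received either vehicle or FK1706, an immunophilin ligand. Sampling followed 1, 2 or 3 weeks of dosing by a day. Neither the dose of FK1706 nor the age of the rats is stated in the sources used here. Each array carried equal parts of total RNA from 5 rats, so each group had 1 array per week and 3 in all, and differences between individual rats cannot be seen. The 3 pools of a group also differ in week, so an SD over them includes the course of time.

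The extracellular matrix of a ganglion lies in its capsule, between its nerve fibre bundles and in the basement membranes around Schwann cells, satellite glia and vessels. Fibroblasts and glia secrete its components, which assemble outside the cell and are turned over by metalloproteinases held in check by tissue inhibitors. Microfibrils of fibrillin carry associated glycoproteins and store growth factors, while the non-fibrillar collagens link fibrils to each other, to basement membranes and to cells. In bulk tissue, fewer cells of a type and less RNA per cell cannot be told apart.

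Values are log2 signals after quantile normalization, with 18.4 signal units added before the log2 step. Normalization took out a falling overall signal: the 2% trimmed mean of the deposited signal ranged from 361 to 534 and was lower in each later week of every group. Without normalization, the typical gene (median log2 difference) stood at -0.10 in STZ vehicle relative to normal, -0.07 in FK1706 relative to STZ vehicle and -0.17 in FK1706 relative to normal. It stood at -0.20 for week 2 relative to week 1 and -0.22 for week 3 relative to week 2. All differences below are relative to these shifts. Among markers of the labelled tissue, all 12 neuron genes, all 7 satellite glia genes and 8 of the 9 myelinating Schwann cell genes on the array were above the filter. So were 8 of 10 skeletal muscle genes, and 6990 of all 10411 genes. Passing the filter therefore does not by itself identify the tissue.

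The promoters of 7 of the 10 genes were held by the RefSeq table of the GRCr8 build, each with 250 bases before and 50 after the start of the gene. No entry was found for Fn1, Mfap4 and Col12a1. Of those 7, 3 are shown as examples, those of Timp1, of Pcolce and of Col6a1. They lie at chrX:3771073-3771372 on the minus strand, chr12:24720722-24721021 on the plus strand and chr20:11905440-11905739 on the plus strand, and are written 5′ to 3′ along the gene. Capitals mark any match, on either strand, to the AP-1 motif TGANTCA, its variant TGAGTAA, the GC box GGGCGG, the TATA box TATAAA and CCAAT, which do not overlap in these windows.
Timp1: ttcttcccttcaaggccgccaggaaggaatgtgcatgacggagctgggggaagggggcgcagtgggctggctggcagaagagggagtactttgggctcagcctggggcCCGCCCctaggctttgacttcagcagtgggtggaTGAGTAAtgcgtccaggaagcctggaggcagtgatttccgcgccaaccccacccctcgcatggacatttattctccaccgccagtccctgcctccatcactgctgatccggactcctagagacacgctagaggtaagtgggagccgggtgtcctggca
Pcolce: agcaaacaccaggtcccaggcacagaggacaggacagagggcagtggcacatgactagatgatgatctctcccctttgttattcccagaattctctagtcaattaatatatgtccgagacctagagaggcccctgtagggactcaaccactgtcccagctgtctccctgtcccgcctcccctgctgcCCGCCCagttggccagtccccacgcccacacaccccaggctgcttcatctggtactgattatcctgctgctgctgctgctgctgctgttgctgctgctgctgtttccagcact
Col6a1: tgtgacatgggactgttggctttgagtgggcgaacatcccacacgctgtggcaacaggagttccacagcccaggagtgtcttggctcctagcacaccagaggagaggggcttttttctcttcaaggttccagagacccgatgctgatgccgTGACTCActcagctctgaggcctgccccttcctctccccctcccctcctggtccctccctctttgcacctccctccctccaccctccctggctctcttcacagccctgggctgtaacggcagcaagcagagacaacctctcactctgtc
The match in Timp1 at bases -108 to -102 from the start was TGAGTAA, which 2.9% of all 33469 promoters of that length held. Col6a1 held TGACTCA at bases -99 to -93, a match to TGANTCA, found in 7.33% of promoters. The GC box was present in Timp1, Lamc1 and Pcolce and in 33.1% of promoters, and CCAAT in Mfap5 and in 37.5%. None of the 7 held TATAAA, which 14.2% held. A match describes letters in this window only.

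Most of the 13 probe sets were lower in diabetic than in normal ganglia. In STZ vehicle against normal, 11 were lower in each of the 3 weeks, beside 15.3% of all probe sets tested, and the STZ value was the lower in 37 of 39 same-week array pairs. All 3 STZ arrays lay under all 3 normal arrays for 9 probe sets, beside 6.63% of all. The median difference was -0.34 on the log2 scale (range -0.61 to 0.01), against 0.00 over all probe sets, and its weekly medians were -0.33, -0.27 and -0.51. In the limma fit across genes, 7 of 6990 passed an adjusted p under 0.05 (0.1%), and 1 of the 10 members, Timp1, was among them. That call was lost in 5 of 9 other settings (trimmed-mean scaling, no filter, a prior without a trend, no week block and every probe set as a row) and when any array but the week 2 normal array was left out. These arrays chose the members, so nothing is read from these shares.

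Differences between the FK1706 and STZ vehicle groups were smaller, and the 2 groups overlapped throughout. In STZ FK1706 against STZ vehicle, 4 probe sets (Timp1, Mfap4, Pcolce and Col12a1 1370927_at) were higher in each week, beside 12% of all, and 0 were lower in each week. The groups overlapped for all 13 probe sets, the drug value was higher in 26 of 39 array pairs and the median difference was 0.07. No share over all probe sets was taken for the overlap or the array pairs, so neither count is read as a trait of these genes. On the deposited scale the median was 0.00. Leaving out 1 array gave 0.02 to 0.14, with 0.02 and 0.05 without the week 1 FK1706 or STZ vehicle array, and 0.12 and 0.14 without the week 3 FK1706 or week 2 STZ vehicle array. For 12 of the 13 probe sets, all but Mfap4, some left-out array moved this difference by over 1.5 times or turned its sign. No gene passed (0 of 6990, 0%, with 218 at an unadjusted p under 0.05). In STZ FK1706 against normal, 8 probe sets were lower in each week, beside 13.9% of all, and the groups did not overlap for 3 of them (Timp1, Col6a1 and Col12a1 1370927_at), beside 5.99%. The median was -0.26, and no member was called, with 1 of 6990 genes called in all (0.0143%). Ranked by group mean, 9 probe sets had normal highest, then FK1706, then STZ vehicle. The members were chosen from group differences of these same arrays, and no share over all probe sets was taken for this order. Nothing is therefore read from it. These comparisons share arrays with each other.

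**Figure D1:**
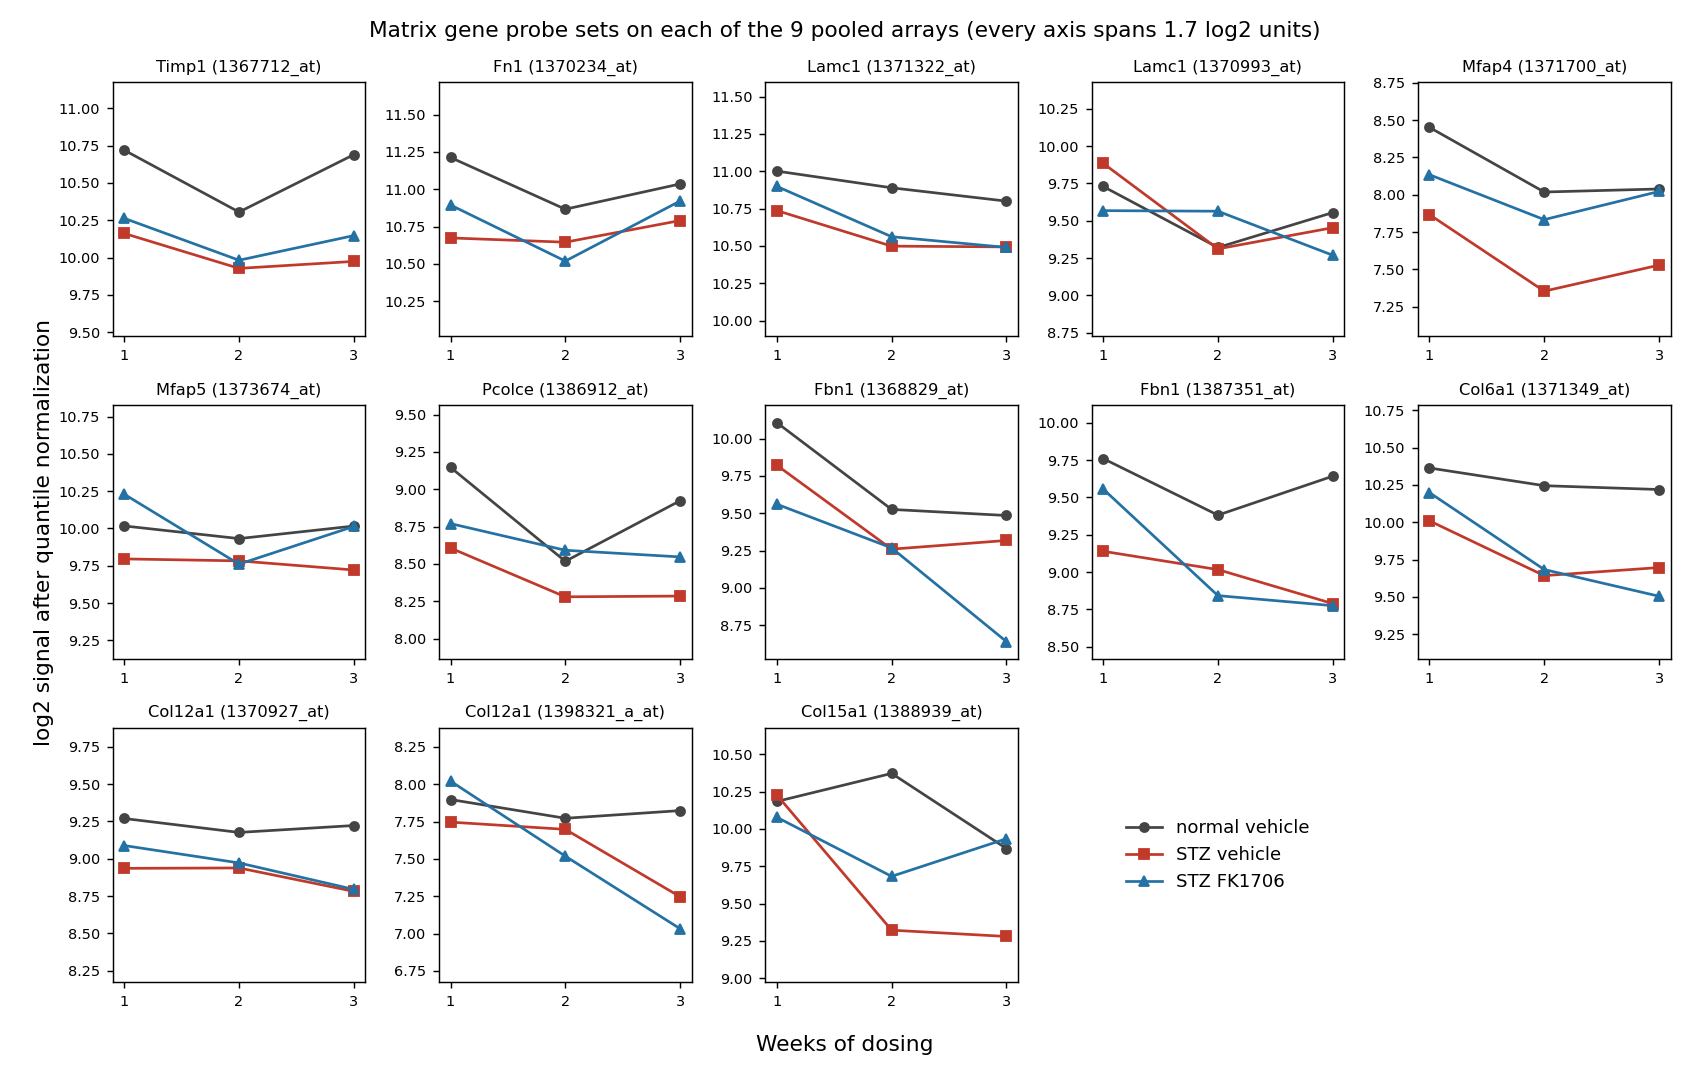
Normalized log2 signal (y axis) of the 13 probe sets against weeks of dosing (x axis), 1 point per pooled array, with lines joining the arrays of a group. Normal arrays (grey circles) lie above STZ vehicle arrays (red squares) in every week for 11 of the 13, and FK1706 arrays (blue triangles) lie mostly between or among them.

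Timp1 encodes a secreted inhibitor of matrix metalloproteinases, which also signals through Cd63. Its log2 signal was 10.72, 10.30 and 10.69 over weeks 1, 2 and 3 in normal ganglia, with a mean of 10.57 ± 0.23 (SD, n = 3). In the STZ vehicle arrays it was 10.16, 9.93 and 9.97 (10.02 ± 0.12), and in the FK1706 arrays 10.26, 9.98 and 10.15 (10.13 ± 0.14). Every diabetic array, treated or not, lay below every normal array. STZ vehicle was 1.46-fold lower than normal (-0.55, SE 0.083), with -0.56, -0.38 and -0.71 in the 3 weeks. FK1706 stood 0.11 above STZ vehicle (SE 0.083), with 0.10, 0.05 and 0.17, and remained 0.44 below normal. The drug arrays were thus the higher in each week by a step little larger than its standard error, and those groups overlapped.

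Fn1 encodes fibronectin, a glycoprotein that integrins bind and that seeds matrix assembly. It read 11.21, 10.87 and 11.04 in normal arrays (11.04 ± 0.17), 10.67, 10.65 and 10.79 in STZ vehicle arrays (10.70 ± 0.08) and 10.89, 10.52 and 10.92 in FK1706 arrays (10.78 ± 0.22). The lowest normal array was above the highest STZ array. The difference was -0.33 (SE 0.086), and was -0.54 in week 1 against -0.22 and -0.25 later. FK1706 was above STZ vehicle in weeks 1 and 3 (0.22 and 0.13) and below it in week 2 (-0.13).

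Lamc1 encodes the gamma 1 chain shared by most laminins, the core of basement membranes, and its 2 probe sets disagreed. Probe set 1371322_at read 11.001, 10.89 and 10.80 in normal arrays, 10.74, 10.50 and 10.49 in STZ vehicle arrays and 10.90, 10.56 and 10.49 in FK1706 arrays. STZ arrays were lower in every week by 0.26 to 0.39 (mean -0.32, SE 0.074). Probe set 1370993_at read 9.73, 9.32 and 9.55, then 9.88, 9.31 and 9.45, then 9.57, 9.56 and 9.27 in the same order of groups. Its groups overlapped, with a mean difference of 0.01 (SE 0.118). That sign turned on the deposited scale (-0.09), without the week 1 STZ vehicle array (-0.08) and without the week 2 normal array (-0.06). Over the 9 arrays its probe sets correlated with r = 0.47, against 0.73 for those of Fbn1 and 0.81 for those of Col12a1, as a description.

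Mfap4 encodes a microfibril-associated glycoprotein that binds elastic fibres, and it showed the widest step between the diabetic groups among the 13. Its mean stood at percentile 51.3 of probe sets, and its week 2 STZ vehicle value (7.354) lay just under the filter on mean signal (7.357). Its signal was 8.45, 8.02 and 8.04 in normal arrays (8.17 ± 0.24), 7.87, 7.35 and 7.53 in STZ vehicle arrays (7.58 ± 0.26) and 8.13, 7.83 and 8.02 in FK1706 arrays (7.996 ± 0.152). STZ vehicle stood at -0.59 against normal (SE 0.124), with -0.58, -0.66 and -0.51 by week. FK1706 was 1.33-fold above STZ vehicle (0.41, SE 0.124), by 0.27, 0.48 and 0.49, and 0.17 below normal. The FK1706 arrays thus overlapped both other groups, reaching the normal value of the same week most closely in week 3 (-0.02).

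Mfap5 encodes another glycoprotein of fibrillin microfibrils. It read 10.02, 9.93 and 10.02 in normal arrays (9.99 ± 0.05), 9.80, 9.78 and 9.72 in STZ vehicle arrays (9.77 ± 0.04) and 10.23, 9.76 and 10.01 in FK1706 arrays (10.002 ± 0.234). The STZ arrays lay within a narrow band below all normal arrays (-0.22, SE 0.098). The FK1706 arrays spanned both groups: they stood 0.43, -0.02 and 0.29 from STZ vehicle over the weeks (mean 0.23). The mean difference of FK1706 from normal, 0.01, was -0.19 on the deposited scale.

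Fbn1 encodes fibrillin 1, the backbone of the microfibril, and was measured by a pair of probe sets. With 1387351_at it read 9.76, 9.38 and 9.64 in normal arrays (9.59 ± 0.19), 9.14, 9.02 and 8.79 in STZ vehicle arrays (8.98 ± 0.18) and 9.56, 8.84 and 8.78 in FK1706 arrays (9.06 ± 0.43). That gave -0.61 (SE 0.134) for STZ vehicle against normal, and the groups did not overlap. With 1368829_at it read 10.11, 9.53 and 9.48, then 9.82, 9.26 and 9.32, then 9.56, 9.27 and 8.64. There the STZ difference was -0.24 (SE 0.124), still negative in each week but with overlapping groups, and -0.15 or -0.35 without the week 2 or week 3 STZ vehicle array. Under FK1706 both probe sets ended below normal by similar amounts in week 3, -0.87 and -0.84. They differed in where the FK1706 arrays stood against STZ vehicle, with means of 0.08 and -0.31.

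Pcolce encodes the procollagen C-proteinase enhancer, a secreted protein that speeds the removal of the C-propeptide from fibrillar procollagens by Bmp1. Its signal was 9.15, 8.52 and 8.92 in normal arrays (8.86 ± 0.32), 8.61, 8.28 and 8.29 in STZ vehicle arrays (8.39 ± 0.19) and 8.77, 8.59 and 8.55 in FK1706 arrays (8.64 ± 0.12). STZ arrays were lower within every week (-0.54, -0.24 and -0.64; mean -0.47, SE 0.118), yet the week 2 normal array lay below the week 1 STZ array. FK1706 exceeded STZ vehicle by 0.16, 0.31 and 0.26 (mean 0.25, SE 0.118). It lay 0.38 below normal in weeks 1 and 3 and 0.07 above it in week 2.

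Col6a1 encodes a chain of type VI collagen, which forms beaded filaments next to basement membranes. It read 10.36, 10.25 and 10.22 in normal arrays (10.28 ± 0.08), 10.01, 9.64 and 9.70 in STZ vehicle arrays (9.78 ± 0.20) and 10.20, 9.68 and 9.50 in FK1706 arrays (9.80 ± 0.36). Both diabetic groups lay wholly below the normal arrays. STZ vehicle differed from normal by -0.49 (SE 0.105) and FK1706 by -0.48, and the weekly values of FK1706 were -0.17, -0.56 and -0.71. FK1706 and STZ vehicle differed by 0.01, which became -0.07 on the deposited scale.

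Col12a1 encodes the chain of type XII collagen, which sits on the surface of fibrils. Probe set 1370927_at read 9.27, 9.18 and 9.22 in normal arrays, 8.94, 8.94 and 8.78 in STZ vehicle arrays and 9.09, 8.97 and 8.79 in FK1706 arrays. Both diabetic groups lay below all normal arrays, by 0.34 and 0.27 (SE 0.096). Probe set 1398321_a_at read 7.90, 7.77 and 7.82, then 7.75, 7.70 and 7.25, then 8.02, 7.52 and 7.03. Its STZ arrays were also below all normal arrays, with a smaller mean difference and a larger error (-0.27, SE 0.176). That mean was -0.07 without the week 3 normal array and -0.40 without the week 1 normal array. FK1706 ran from 0.12 above normal in week 1 to 0.79 below it in week 3.

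Col15a1 encodes the chain of type XV collagen, which joins basement membranes to the fibrils around them, and its STZ vehicle value was not lower in week 1. It read 10.18, 10.37 and 9.87 in normal arrays (10.14 ± 0.25), 10.23, 9.32 and 9.28 in STZ vehicle arrays (9.61 ± 0.54) and 10.08, 9.68 and 9.93 in FK1706 arrays (9.90 ± 0.20). Over the weeks the STZ difference read 0.04, -1.05 and -0.59. FK1706 stood below STZ vehicle in week 1 (-0.15) and above it in weeks 2 and 3 (0.36 and 0.65). The mean differences, -0.53 and 0.29 (SE 0.177), thus average unlike weeks. The first was -0.29 without the week 2 normal array and -0.78 without the week 1 STZ vehicle array, and the second was 0.12 without the week 3 FK1706 array and 0.54 without the week 1 STZ vehicle array.

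**Figure D2:**
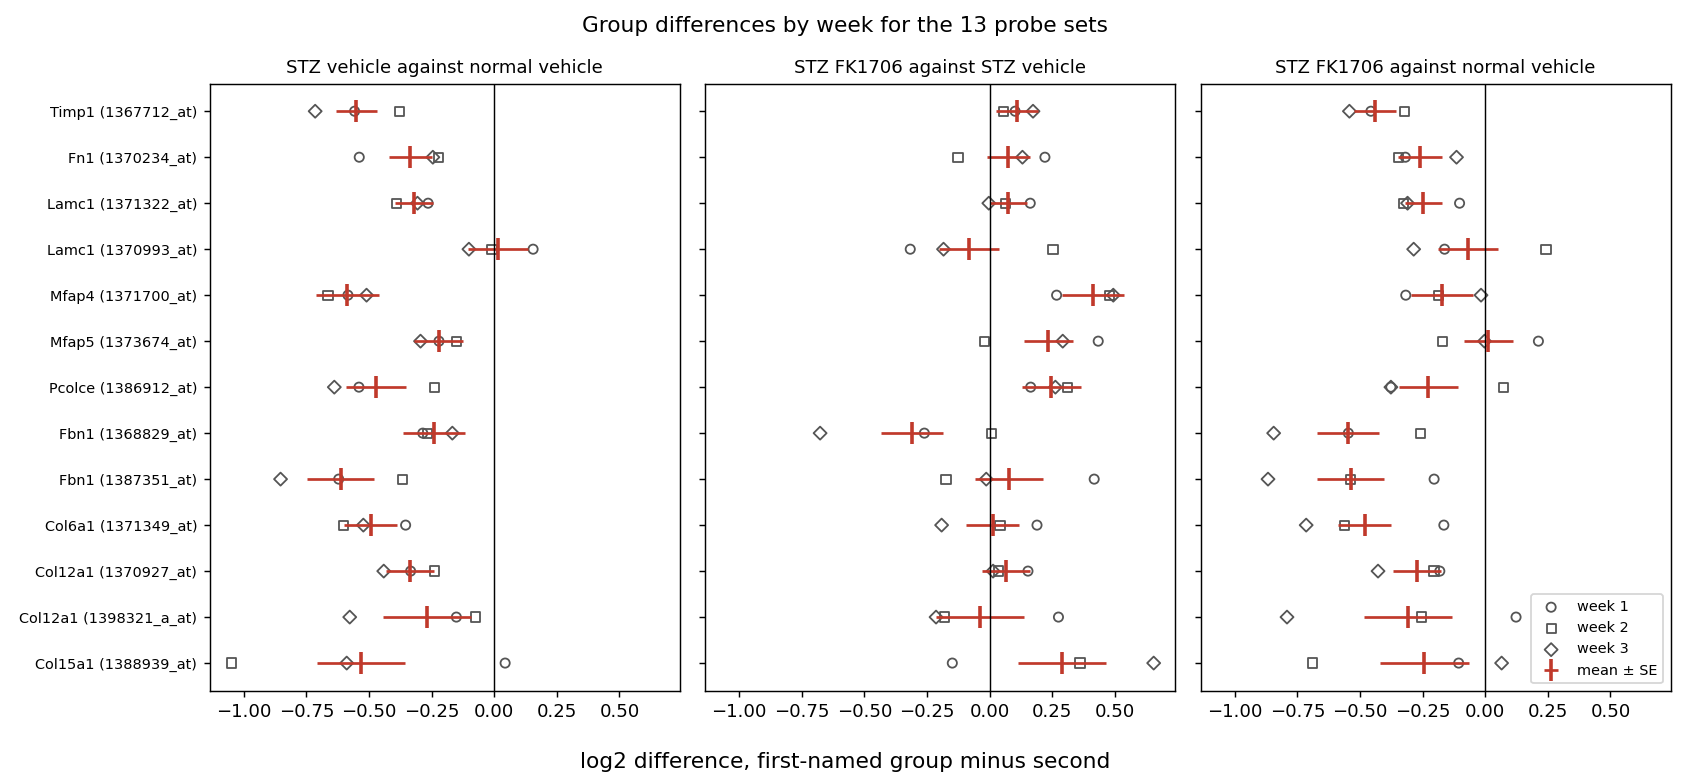
log2 differences (x axis) between groups for each of the 13 probe sets (rows), with open symbols for the 3 weeks and red bars for the mean ± SE of the limma fit. In the left panel nearly all symbols lie below 0 (37 of 39), in the middle panel they scatter around 0 (26 of 39 above it) and in the right panel 34 of 39 lie below it.

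Change over the weeks was tested, although the members were chosen with earlier results of these data known. Each week held 1 array of every group, and the groups stood as the replicates of a week. Time on dosing, age and any difference in processing between weeks cannot be told apart. All 13 probe sets were lower on average in week 2 than in week 1, with a median of -0.33 against 0.00 over all probe sets, and 11 were lower within each of the 3 groups, beside 12.4% of all. None passed (smallest adjusted p = 0.578 with limma; 0 of 9520 probe sets, 0%, called), although 9 of the 13 had an unadjusted p under 0.05, as had 546 probe sets in all. The week 2 mean of Mfap4 was 0.42 below that of week 1 (SE 0.124, limma adjusted p = 0.757), with -0.43, -0.51 and -0.30 in normal, STZ vehicle and FK1706 ganglia. For Timp1 the difference was -0.31 (SE 0.083, limma adjusted p = 0.621), with -0.41, -0.23 and -0.28. The exceptions within a group were Col15a1, 0.19 higher in normal ganglia, and Col12a1 1370927_at, level in STZ vehicle ganglia (0.00). Lower values in week 2 were not particular to the members. The 6 fibrillar collagens tested had a median of -0.42, all lower on average and 5 in each group. Medians were -0.30 for 5 other non-fibrillar collagens and -0.18 for 14 basement membrane genes. In the fit across genes 1 was called for this contrast, the fibrillar collagen Col3a1.

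Week 3 against week 2 gave differences of both signs. Timp1 (0.20, SE 0.083), Fn1 (0.24, SE 0.086) and Mfap4 (0.13, SE 0.124) were higher in week 3 within each group, 3 probe sets beside 15% of all, although all 3 mean differences fell just below 0 on the deposited scale. Lamc1 1371322_at was lower within each group. The median was -0.01, none of the 13 was called (smallest limma adjusted p = 0.412), and 0.0105% of all probe sets were. Week 3 against week 1 was negative in each group for 12 probe sets, beside 18.7% of all, the exception being Fn1. Fbn1 1368829_at had the lowest adjusted p, with a difference of -0.68 (SE 0.124, limma adjusted p = 0.074) made of -0.62, -0.50 and -0.92, and did not pass. For that contrast 0.021% of all probe sets were called, and 0.0525% passed the moderated F test over the weeks (5 of 9520, no member, smallest adjusted p = 0.14). On the deposited scale, whose overall signal falls by the week, all 13 passed that test, as did 5936 of 9520 probe sets.

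**Figure D3:**
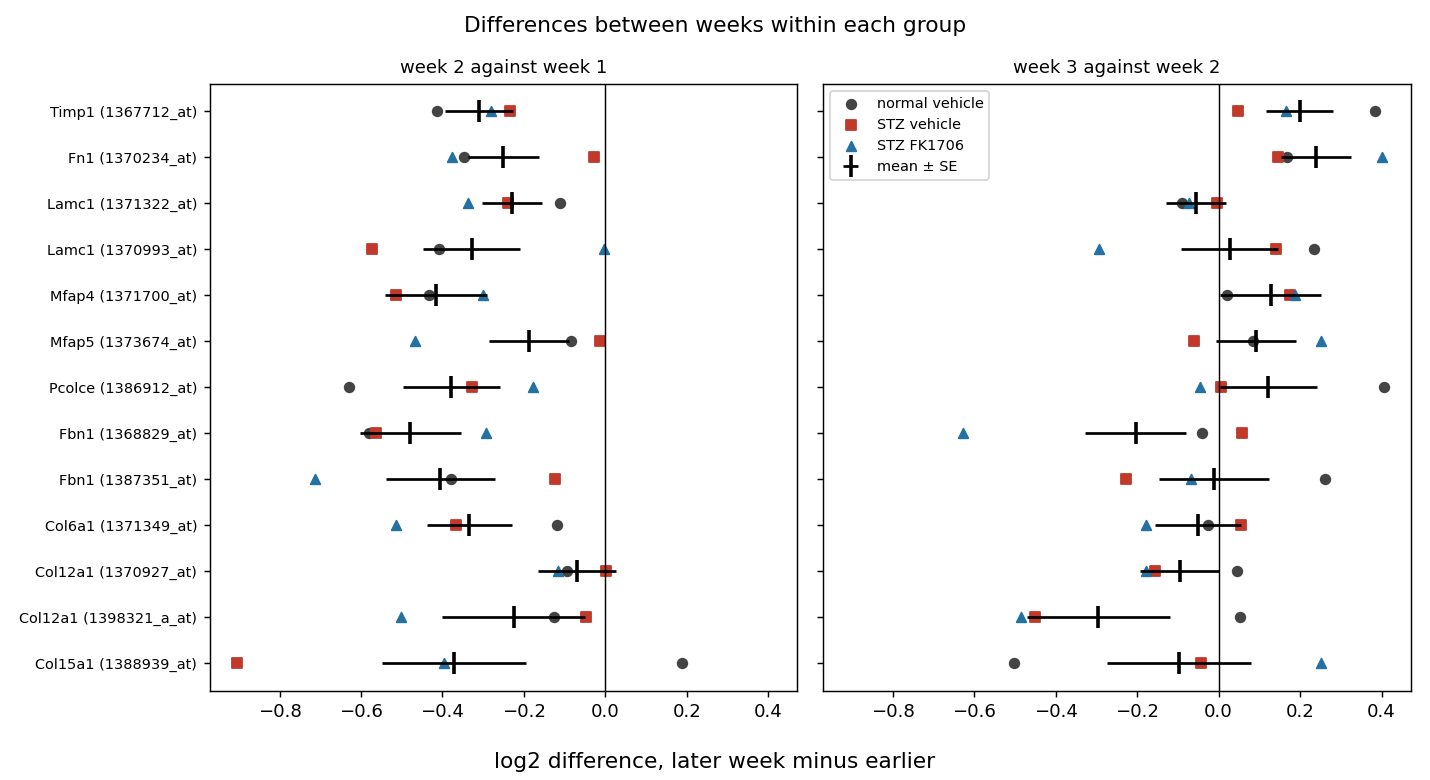
log2 differences between successive weeks (x axis) for the 13 probe sets (rows) in normal vehicle, STZ vehicle and STZ FK1706 ganglia (symbols), with the mean ± SE of the limma fit as black bars. In week 2 against week 1 all 13 means lie below 0. In week 3 against week 2 they lie on both sides of 0.

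Whether a group difference grew or shrank was tested with a straight line over the weeks in each group. None of the 13 probe sets passed for any of the 3 pairs of groups, nor did any other (0% of 9520 in each; 373, 322 and 460 at an unadjusted p under 0.05). At an unadjusted p under 0.05 stood 1 member, Col12a1 1398321_a_at in FK1706 against normal, at -0.46 per week (SE 0.175, limma adjusted p = 0.996). This dimmer Col12a1 probe set had a mean at percentile 45.8. Its week 3 values in STZ vehicle (7.25) and FK1706 (7.03) lay under the filter on mean signal (7.357). The brighter 1370927_at had -0.12 per week (SE 0.124). Slopes of the STZ difference ranged widely around 0, from -0.32 per week for Col15a1 (SE 0.195) to 0.15 for Fn1 (SE 0.151).

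The genes that act with these members were followed in lists, which were drawn up with earlier results of these data known. Outside the fibrillar collagens, 0 of 94 list genes passed in any comparison of groups with limma. At an unadjusted p under 0.05, 16 were lower and 1 higher in STZ vehicle against normal, 3 lower and 0 higher in FK1706 against STZ vehicle, and 13 lower and 1 higher in FK1706 against normal. Over all 6990 genes, 604, 218 and 572 had such a p in these comparisons. Among metalloproteinases and their inhibitors, 7 of 11 tested genes were lower on average in STZ vehicle against normal and 3 in each week, beside 16.1% of all genes, with a median of -0.07. Timp2, an inhibitor that also helps to activate Mmp2, differed by -0.22 (limma adjusted p = 0.413). Timp3, an inhibitor bound to the matrix, differed by 0.03, the gelatinase Mmp2 by -0.21 and its membrane-bound activator Mmp14 by -0.07. None of them passed, and Cd63, the tetraspanin that binds Timp1, did not pass either (-0.20, limma adjusted p = 0.402).

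Of 14 basement membrane genes, 11 were lower on average and 7 in each week, with a median of -0.11. Lamb2, a laminin beta chain, had -0.19, -0.51 and -0.38 over the weeks (mean -0.36, limma adjusted p = 0.318). Lama4 (-0.07), Lamb1 (-0.09), Nid1 (-0.13), Col4a1 (-0.15) and Col18a1 (-0.05) had smaller differences. All 5 other non-fibrillar collagens tested were lower on average and 4 in each week, with a median of -0.32. Col14a1, which like type XII collagen binds to fibrils, had -0.43, -0.56 and -0.34 (mean -0.44, limma adjusted p = 0.269), Col6a2 had -0.29 and Col6a3 -0.32, and none of these passed.

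Microfibril and elastic fibre genes outside the members were evenly divided, 4 lower and 4 higher on average, with a median of 0.00. Eln, which encodes elastin, differed by 0.04, and Lox, which crosslinks elastin and collagen, by -0.32 (limma adjusted p = 0.537). Mfap2, Mfap3 and Fbn2 were on the array but below the filter. Of 14 collagen processing genes, 10 were lower on average and 3 in each week (median -0.10). Serpinh1, the collagen chaperone, had 0.05, -0.78 and -0.39 by week, Bmp1 had a mean of -0.10 and P4ha1, a prolyl hydroxylase subunit, 0.03. Bmp1, the proteinase that Pcolce enhances, was lower in FK1706 than in STZ vehicle ganglia in each week (mean -0.34, SE 0.141, limma adjusted p = 0.999), while Pcolce was higher in each.

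The remaining lists lay close to the median of all genes. Proteoglycans and matricellular proteins had 10 of 11 lower on average but 2 in each week (median -0.08). Among them Dcn (-0.08) and Lum (-0.05) bind collagen fibrils, and Tnc (-0.22) modulates adhesion. Matrix receptors were split, 8 of 15 lower (median -0.05), with Itgb1, the beta chain of most matrix integrins, at -0.05. TGF-beta and gp130 signals had 9 of 16 lower (median -0.05), Tgfb1 was below the filter, and Tgfbi, a matrix protein induced by TGF-beta, differed by -0.24 (limma adjusted p = 0.459). The fibrillar collagens stood lower as a group in STZ vehicle against normal, all 6 in each week with a median of -0.47. Of these, 3 were called lower: Col1a1 (-0.82, limma adjusted p = 0.0105), Col3a1 (-0.54, limma adjusted p = 0.0105) and Col1a2 (-0.53, limma adjusted p = 0.0475). All 3 calls were lost with no filter, with a prior without a trend and with no week block, and also when the week 1 or week 3 array of either normal or STZ vehicle rats was left out. Col1a2 also missed the threshold with trimmed-mean scaling and with every probe set as a row. Of the 9 fits that leave out an array, Col1a1 was called in 5, Col3a1 in 3 and Col1a2 in 3.

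**Figure D4:**
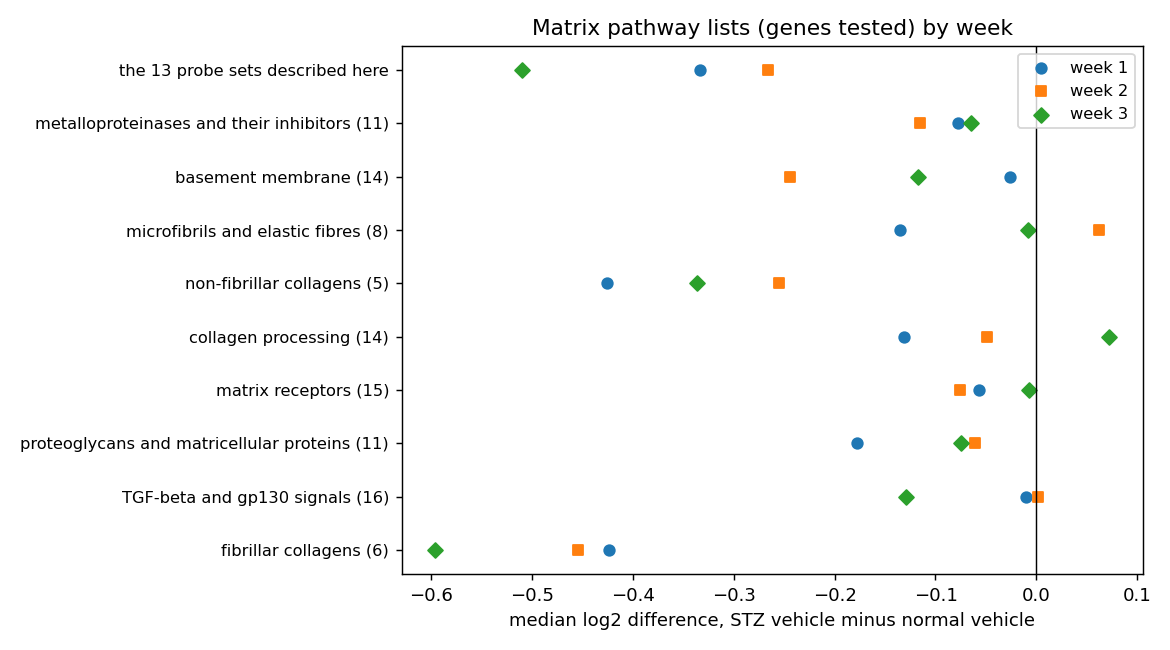
Median log2 difference of STZ vehicle against normal vehicle (x axis) in weeks 1, 2 and 3 (symbols) for each matrix list (rows, number of genes tested in brackets) and, in the top row, for the 13 probe sets. The top row, the other non-fibrillar collagens and the fibrillar collagens lie to the left in all 3 weeks, and the other lists lie nearer to 0.

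Over the 9 arrays, which share groups and weeks, the 45 pairs of members correlated with r from 0.11 to 0.98 and a median of 0.69. Among the 6980 other genes tested, the profile closest to the mean of the members was that of Col1a1 (r = 0.98), then Col5a2 and Col3a1 (both r = 0.97) and Mt3 and Rcn3 (both r = 0.95). Closest to Timp1 were Mt3 (r = 0.96), Rcn3 (r = 0.94), Etfrf1 (r = 0.93), and Col1a2 and Cavin3 (both r = 0.92). Fibrillar collagens led the order for the mean and not for Timp1. Group differences of these same arrays chose the members, and both profiles carry those differences. No correlation over other pairs of genes was taken, so nothing is read from these values.

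Signals of marker genes were summed per array for each of several cell types. For 11 fibroblast markers, 10 of them above the filter, sums ranged from 31624 to 35754 in normal, 31471 to 34141 in STZ vehicle and 33062 to 34028 in FK1706 arrays, which overlap. Within each week the STZ vehicle sum was nevertheless the lower (32781 against 35754, 31471 against 31624 and 34141 against 34741). Of the 10 fibroblast genes tested, 8 were lower on average and 2 higher, with a median of -0.08. In each week 4 were lower and 1 was higher, and none passed with limma. The sum of 12 cartilage and bone markers ranged from 3061 to 3684 in normal arrays, 1706 to 2367 in STZ vehicle and 1969 to 2432 in FK1706 arrays, so both diabetic groups lay below all normal arrays. Of these, 6 (Acan, Col9a1, Comp, Ibsp, Bglap and Sost) were below the filter. Col2a1, the collagen of cartilage, named after its value was seen, was the 1 marker called lower of the 6 tested, and 5 of the 6 were lower in each week. Adipocyte markers, 5 genes of which Plin1, Fabp4, Lep and Cfd were below the filter, summed to 466 to 604 in normal, 423 to 443 in STZ vehicle and 387 to 555 in FK1706 arrays, so the STZ vehicle arrays again lay below all normal arrays. The 1 adipocyte gene tested was lower in each week (-0.36) and did not pass. The part of such tissues in the differences above was not tested.

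Other sums overlapped between normal and STZ vehicle arrays for muscle (10 genes, 3100 to 6691 against 2464 to 4383) and for neutrophil and mast cells (6 genes, 1732 to 2363 against 1095 to 1888). The neutrophil and mast cell sum was nevertheless lower in STZ vehicle than in normal arrays of the same week throughout (1371 against 1732, 1888 against 2212 and 1095 against 2363). Its 4 tested genes had a median of -0.68, all lower on average, 2 in each week, 3 at an unadjusted p under 0.05 and none passing with limma. The macrophage sum (9 genes) was also lower within each week, 5821 against 6282, 6538 against 6989 and 5877 against 6761. Of its 6 tested genes, 5 were lower on average and 4 in each week, with a median of -0.15. Sums of the 9 myelinating Schwann cell markers were 32944 to 34547 in normal, 29465 to 34032 in STZ vehicle and 30506 to 32132 in FK1706 arrays, the last group lying below all normal arrays. Within each week the STZ vehicle sum was also below normal (34032 against 34547, 29465 against 32944 and 32130 against 34304). Of the 8 Schwann cell genes tested, 7 were lower on average and 3 in each week, with a median of -0.06. At an unadjusted p under 0.05, 3 were lower, and none passed with limma. The 12 neuron markers kept within 74672 to 77085 over all arrays. No marker of any list was at 0 on all arrays, and the part of these cells in the differences above was not tested.

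**Figure D5:**
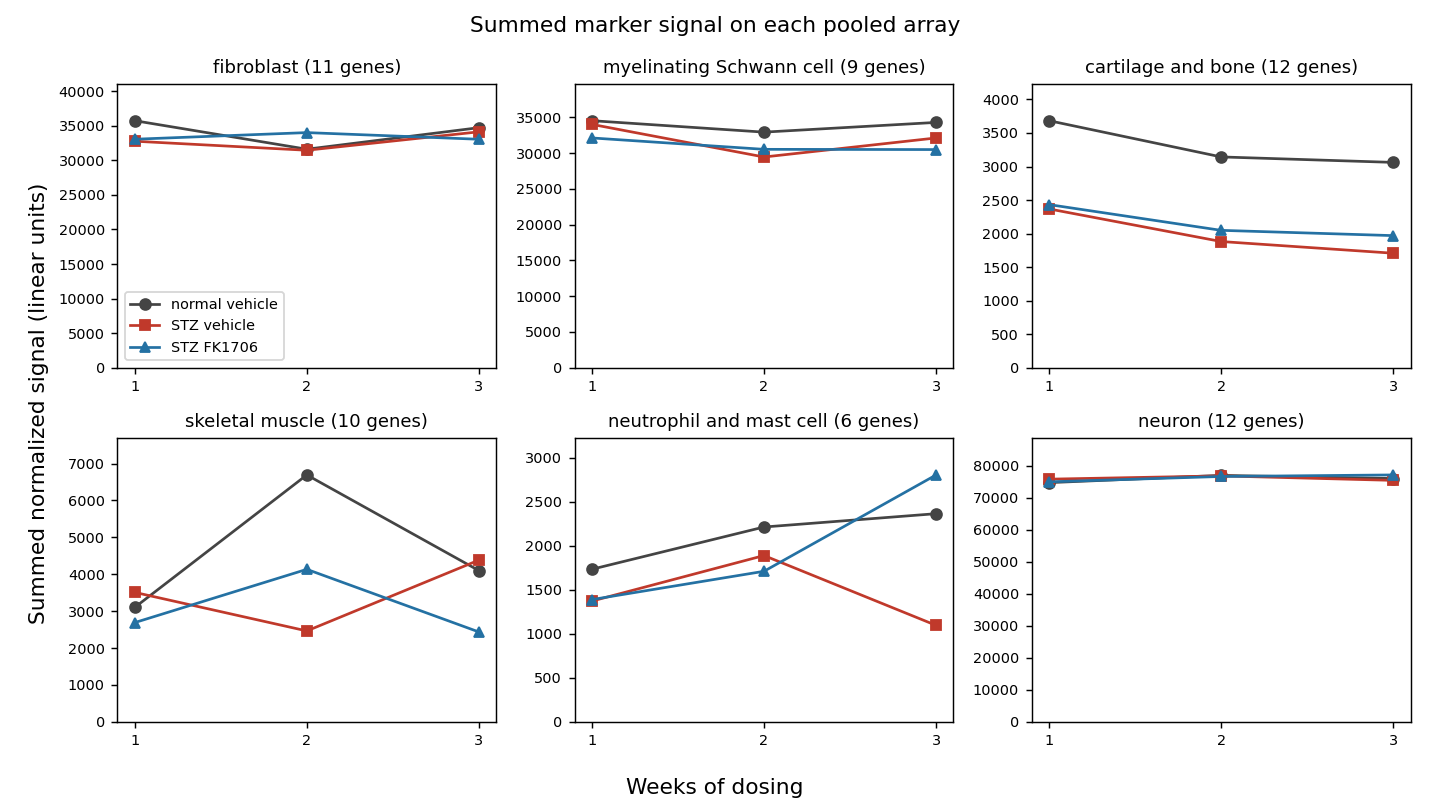
Summed normalized signal in linear units (y axis, from 0) of 6 marker lists on each pooled array against weeks of dosing (x axis), by group. Cartilage and bone markers lie lower in both diabetic groups (1706 to 2432) than in normal arrays (3061 to 3684), whereas fibroblast and neuron sums overlap between groups. The fibroblast sum is nevertheless lower in STZ vehicle than in normal arrays within each week.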

How the data were processed

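Per the submitters' processing notes, the deposited intensity of each probe set, on a linear scale, came from MAS5 (no version given). Each of the 9 arrays held RNA pooled from 5 rats, and each group had 1 array per week. The p-values thus rest on the spread left by the fit, which mixes differences between pools with differences in course between groups. Of 15923 probe sets, 57 were controls, and 12783 had 1 symbol, 312 several and 2771 none in the platform annotation. GRCr8 gene identifiers matched 12748 of them. Signals were raised by 18.4, their 10th percentile, taken to log2 and quantile normalized over all probe sets, and the 40% with the lowest means were not tested. Fits across 6990 genes used the highest probe set of each, and members were also fitted by probe set (9520). limma 3.58.1 in R 4.3.3 (lmFit, eBayes with a trend) used factors for group and week in all 9 arrays, with 4 residual degrees of freedom, or a linear week term per group, with 3. p-values were two-sided, adjusted by Benjamini-Hochberg, with a threshold of 0.05. Week, which the labels give to every group, was a block, and same-week arrays correlated with r from 0.01 to 0.32 once group means were removed. The fits were run on simulated data with planted changes and independent noise. That noise had no part shared by pools, weeks or genes, so the run does not show how the fits behave with these pools. The members and lists were chosen with earlier results of these data known. Named genes were all members, a written list of partners whatever their values, pathway genes that passed, and the 5 profiles nearest to Timp1 and to the mean of the members. The number of arrays limits precision. Alternatives changed the scale, offset, filter, prior, block and probe set rule, or left out each array.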

Additional observations from a re-analysis of the deposited data

How the results depend on the processing

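Timp1, Col1a1, Col3a1 and Col1a2, called in STZ vehicle against normal, kept their direction under every alternative. The direction of the other called genes was not followed. In STZ vehicle against normal, 7 genes were called, 16 on the deposited scale, 0 with no filter, 0 with a prior without a trend and 1 with no replicate block (week left out), and 0 to 6 when each array was left out in turn. Timp1 remained called in 1 of these 9 fits, the one without the week 2 normal array, and in 4 of 9 other settings (deposited scale, both offsets and the stricter filter), with differences from -0.65 to -0.48. The members' median was -0.40 to -0.31 with an array left out. In STZ FK1706 against STZ vehicle, 4 member probe sets were higher in each week, 2 on the deposited scale and 4 to 6 with an array left out. The median there, 0.07, was 0.00 on the deposited scale and 0.02 to 0.14 with an array left out. In STZ FK1706 against normal the median of -0.26 became -0.44 on the deposited scale. The 1 gene called became 106 there, 0 with no filter, 0 with a prior without a trend, 0 with every probe set as a row, and 0 to 2 with an array left out. For weeks, the deposited scale, on which overall signal falls, called 13 members in place of 0 and 5936 probe sets in place of 5. The latter count was 1 after division by the trimmed mean, 0 with no filter, 0 without a trend, 2 with no replicate block and 0 to 7 with an array left out. List genes called rose from 3 to 19 and member probe sets from 0 to 2 on the deposited scale. Of 232 member values per comparison, signs changed in 3, 10 and 7 for the 3 group pairs in the order above. Of the week contrasts, week 3 against week 2 was the least steady (18 of 232), and week 2 against week 1 changed in 0. The cause of these shifts was not tested.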

Other observations

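Sums of further cell type markers, which belong to no comparison above, overlapped between groups. The 8 perineurial and barrier cell markers summed to 9029 to 9158 in normal, 8716 to 9863 in STZ vehicle and 8820 to 9288 in FK1706 arrays. In the same order, the 7 satellite glia markers summed to 25310 to 27313, 25543 to 26562 and 25653 to 26125. Endothelial markers (7 genes, Pecam1 and Vwf below the filter) summed to 1940 to 2166, 1818 to 2130 and 1757 to 2067. None of the tested genes of these 3 lists passed in any comparison of groups with limma. In STZ vehicle against normal, 1 perineurial gene was higher and 2 were lower at an unadjusted p under 0.05.

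FK1706 against STZ vehicle gave small differences, none past the threshold, for other genes near the members. Col6a2, which encodes a partner chain of Col6a1, was higher in each week (0.11, 0.44 and 0.11; limma adjusted p = 0.999). Lox was higher in weeks 1 and 3 (0.42 and 0.23) and lower in week 2 (-0.06). Col1a1 was higher in weeks 1 and 2 (0.38 and 0.34) and lower in week 3 (-0.04).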
